A study of Mus musculus with 45 samples.

Results

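The 10 genes described here encode 7 Toll-like receptors (Tlr1, Tlr2, Tlr3, Tlr4, Tlr6, Tlr7 and Tlr9), Cd180, which is a receptor-like relative of Tlr4, and Ly86 and Ly96, the small secreted partners of Cd180 and Tlr4. They were taken by symbol from both deposited expression tables and make up 10 of the 28196 genes in each table. All 10 passed the filter on low values in both tables. RNA was sequenced from mouse splenic B2 cells and from cells grown from them in culture, in 45 libraries that form 15 groups of 3. All mice were on the C57BL/6 strain background, and B2 cells came from a CD43-based isolation at over 95% purity, per the labels' protocols.

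The groups fell into 3 sets of mice. Wild type males of 7 weeks gave the day 0 B cells and the TLR and BCR cultures of days 4, 7 and 10. Wild type females of 9 weeks gave the LPS cultures of days 4 and 7. Females of 9 weeks labelled Prdm1 delta ex1A, here dEx1A, gave the TLR, BCR and LPS cultures of days 4 and 7, but no day 0 or day 10 group. Cells of the TLR culture grew on irradiated L cells that carry CD40L, with LPS (5 µg/mL) plus the cytokines IL-4 and IL-5 (50 ng/mL). The BCR culture had F(ab')2 anti-IgM/IgG at 12 µg/mL in place of LPS. Cells left the L cells at day 2, and from day 4 were fed with IL-6 at 10 ng/mL and APRIL at 100 ng/mL. The sources used here do not say what the LPS culture held. The labels call day 4 and day 7 cells plasmablasts and day 10 cells plasma cells. Whether the 3 libraries of a group came from separate mice is not stated, and p-values here reflect the spread of libraries within groups, which may be technical.

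Toll-like receptors bind conserved microbial molecules and signal through the adaptors Myd88 or Ticam1 to NF-kappa-B and interferon regulatory factors. Tlr4 with Ly96 (MD-2) binds LPS, Tlr2 pairs with Tlr1 or Tlr6 to bind lipopeptides, and Tlr3, Tlr7 and Tlr9 bind nucleic acids inside endosomes. Cd180 (RP105) with Ly86 (MD-1) sits on mature B cells and has no signalling domain of the Toll type. In B cells these receptors can drive division and plasma cell formation without T cells.

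The values are the deposited log2 values after a variance-stabilising transformation (VST). A gene with 0 reads stands at 3.04, and for genes with many reads a difference of 1 is close to a 2-fold difference, while differences of genes near 3.04 are understated. Levels of different genes were compared only as normalised reads per kb of exon, recovered from the deposited values. The libraries held between 15.09 and 35.52 M recovered reads (M, mega). In the wild type LPS libraries and the dEx1A day 7 libraries depth was lower (15.09 to 19.57 M) than in the others (20.27 to 35.52 M), and GC-rich transcripts stood higher (GC offset, defined in the processing notes, 0.56 to 1.34 against −1.51 to 0.44). Each contrast across these library sets is named as such. Summed mature B cell markers (8 genes) ran from 201000 to 209000 normalised reads at day 0 and from 33300 to 118000 in culture. Summed plasma cell markers (8 genes) ran from 13100 to 19600 at day 0 and from 321000 to 1680000 in the wild type TLR and BCR cultures of days 7 and 10. At day 4 they ran from 46900 to 51800 in the wild type TLR and from 30800 to 41500 in the wild type BCR culture. In the wild type LPS culture of day 4 they ran from 150000 to 158000. Prdm1, the gene named in the dEx1A genotype, stood at 9.60 to 10.01 in the dEx1A LPS libraries of day 4 and at 12.34 to 12.68 in wild type, and at 11.10 to 11.32 against 12.40 to 12.77 at day 7. At day 4 of the TLR culture the groups overlapped, with Prdm1 at 9.71 to 10.61 in dEx1A and 9.66 to 9.86 in wild type. At day 7 of that culture Prdm1 was lower in dEx1A, at 11.72 to 11.90 against 13.04 to 13.43. In the BCR culture it was lower too, at 7.27 to 8.82 against 9.32 to 10.23 at day 4. At day 7 there it stood at 10.02 to 10.80 against 12.33 to 12.56. These are values of the whole gene and do not test for the deleted exon.

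Cd180, Tlr1 and Tlr9 had the widest falls at day 4 of the TLR culture, and the 250 bases before their start sites are shown because these genes moved together there. They were taken from RefSeq (GRCm38.p6), which gave such a window for 7 of the 10 genes. The genes were chosen after their values were seen. The windows are Cd180 (chr13:102693308-102693557, plus strand), Tlr1 (chr5:64933559-64933808, minus strand) and Tlr9 (chr9:106222348-106222597, plus strand), written 5′ to 3′ on the gene's strand, with motif matches in capitals.
Cd180: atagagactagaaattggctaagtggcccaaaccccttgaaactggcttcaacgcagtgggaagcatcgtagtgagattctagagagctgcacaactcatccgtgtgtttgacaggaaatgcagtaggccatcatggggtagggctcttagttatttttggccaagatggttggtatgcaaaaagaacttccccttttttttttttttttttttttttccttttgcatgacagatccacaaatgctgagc
Tlr1: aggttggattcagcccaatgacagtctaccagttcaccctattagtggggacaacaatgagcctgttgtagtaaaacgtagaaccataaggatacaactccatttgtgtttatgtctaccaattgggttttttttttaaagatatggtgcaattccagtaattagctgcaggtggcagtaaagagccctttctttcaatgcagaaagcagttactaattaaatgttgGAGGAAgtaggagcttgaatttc
Tlr9: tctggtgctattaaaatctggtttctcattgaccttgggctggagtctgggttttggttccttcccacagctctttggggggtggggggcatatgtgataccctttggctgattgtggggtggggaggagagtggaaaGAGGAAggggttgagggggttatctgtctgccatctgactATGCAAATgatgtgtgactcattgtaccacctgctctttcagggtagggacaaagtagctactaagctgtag
5 motifs were searched on both strands. GAGGAA, a PU.1-type core, was in 2 of the 7 windows (Tlr1 and Tlr9) and in 23.3% of all 32851 promoter windows of this length. The octamer ATGCAAAT was in the Tlr9 window, from position −72 to −65 before the start, and in 1.6% of all windows. GNGAAAG, a core shared by Blimp-1-type and IRF-type motifs, was in 3 of the 7 windows (Tlr2, Tlr3 and Ly86) and in 19.4% of all. A kappa-B-type motif, GGGA and TTCC with any 2 letters between them, was in the Tlr3 window and in 1.21% of all. A STAT6-type motif, TTC and GAA with any 4 letters between them, was in the Ly86 window, where its match overlaps one of GNGAAAG, and in 5.85% of all. These are matches of letters only.

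Among the 10 genes, resting B cells held Tlr1, Cd180, Ly86, Tlr7 and Tlr9 at the higher levels. Both parts of the LPS receptor were among the lower ones. At day 0, Tlr1 stood at 1880 ± 229 normalised reads per kb (SD, n = 3) and Cd180 at 1810 ± 90, which lie within their SDs. Ly86 followed at 870 ± 72.7, Tlr7 at 457 ± 12.2 and Tlr9 at 447 ± 61.3. The others were lower still, with Tlr2 at 78.7 ± 9.34, Tlr4 at 75.4 ± 4.79, Ly96 at 69.2 ± 6.4, Tlr6 at 59.5 ± 4.34 and Tlr3 at 27.7 ± 4.26. At day 4, Tlr7 was the highest of the 10 in both cultures with L cells, at 1200 ± 365 in the wild type TLR and 1370 ± 388 in the wild type BCR culture. At day 7 Cd180 was first, at 1320 ± 146 in the TLR and 1340 ± 359 in the BCR culture, and it was first at day 10 too (834 ± 225 and 1360 ± 436).

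**Figure D1:**
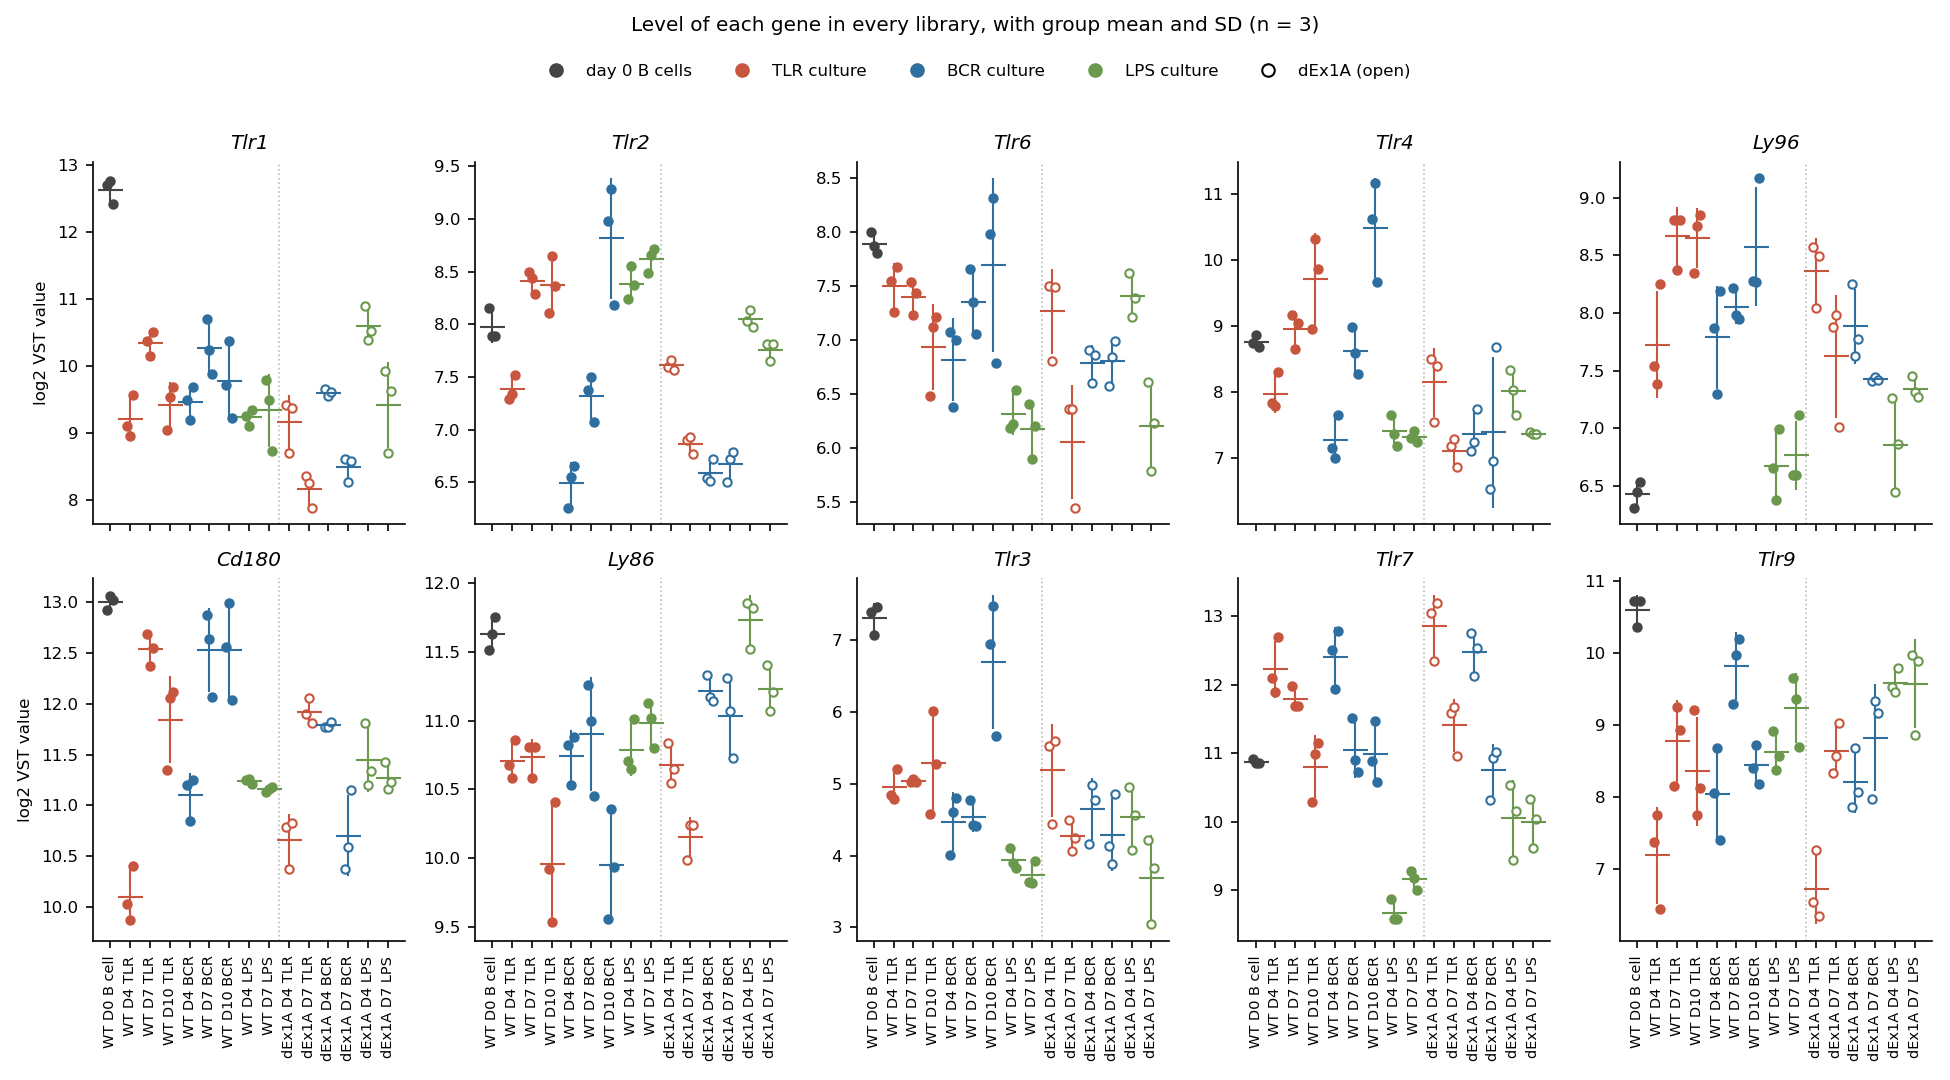
Each panel shows 1 gene, with its log2 VST value on the vertical axis and the 15 groups on the horizontal axis (WT, wild type; D, day). Points are libraries, the dash and bar are the group mean and SD (n = 3), and open points are dEx1A; Tlr1, Tlr3, Tlr6, Tlr9 and Cd180 have their highest mean at day 0, and Tlr7 has its highest at day 4 of the dEx1A TLR culture (12.86).

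The first comparison asks how the family differed between resting B cells and the day 4 cells, which the labels call plasmablasts. Most members fell, led by Tlr1, Tlr9, Tlr3 and Cd180, while Tlr7 and Ly96 rose in the cultures with L cells. In the TLR culture 2 of 10 members were higher and 6 lower than at day 0 (limma, adjusted p under 0.05), where 24.9% and 23.5% of the 19497 genes tested were. In the BCR culture 2 were higher and 8 lower, against 26.1% and 24.5% of genes. In the wild type LPS culture 1 was higher and 8 lower, against 27.3% and 30.8% of 20331 genes. The median difference of the members was −0.85, −1.49 and −1.67, and that of all genes was 0.01, 0 and −0.01. The 3 comparisons share the day 0 libraries. The LPS comparison also crosses sex, age and library set, which cannot be told apart from the culture there.

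Cd180 (chr13:102693558-102739629, plus strand, GRCm38) is the surface receptor that amplifies or restrains LPS responses of B cells. It stood at 12.92, 13.06 and 13.02 at day 0. At day 4 it stood at 10.03, 9.87 and 10.40 in the TLR culture and at 11.20, 10.85 and 11.25 in the BCR culture. In the LPS culture it stood at 11.25, 11.26 and 11.21. Every day 4 library lay below every day 0 library. The differences were −2.90 ± 0.25 (SE; adjusted p = 2.81e-08) in the TLR, −1.90 ± 0.25 (4.94e-06) in the BCR and −1.76 ± 0.18 (1.4e-09) in the LPS culture. Between day 4 and day 7 it rose by 2.44 ± 0.25 in the TLR culture (adjusted p = 5.55e-07), to 12.69, 12.37 and 12.55. The BCR culture showed a rise of 1.43 ± 0.25 (adjusted p = 0.000254), to 12.87, 12.64 and 12.07. The annotated gene Mast4 overlaps the end of Cd180, and the strand setting of the counting is not given, so their reads may not be told apart there.

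Ly86 (chr13:37345208-37419036, plus strand), the partner that Cd180 needs to reach the surface, had smaller differences from day 0. It stood at 11.51, 11.63 and 11.75 at day 0 and at 10.68, 10.58 and 10.86 at day 4 of the TLR culture. The differences from day 0 were −0.92 ± 0.23 (adjusted p = 0.00291) in the TLR, −0.89 ± 0.23 (0.00366) in the BCR and −0.84 ± 0.16 (5.59e-05) in the LPS culture. While Cd180 rose again, Ly86 did not pass the test, with 0.03 ± 0.23 between days 4 and 7 in the TLR culture (adjusted p = 0.95) and 0.16 ± 0.23 in the BCR culture (0.652). It fell from day 7 to day 10, by 0.78 ± 0.23 (adjusted p = 0.0458) in the TLR and by 0.95 ± 0.23 (0.00884) in the BCR culture, to 9.96 ± 0.44 and 9.95 ± 0.40 (SD, n = 3). The TLR call was lost in several settings, among them voom (−0.80, adjusted p = 0.0631) and median centring (−0.91, 0.0776). Settings that ended the BCR call included the compared groups alone (adjusted p = 0.127) and leaving out the first day 10 library (−0.75, 0.0583).

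Tlr1 (chr5:64924679-64933563, minus strand), the lipopeptide coreceptor, stood at 12.69, 12.75 and 12.41 at day 0. It stood at 9.11, 8.95 and 9.57 at day 4 of the TLR culture, 9.50, 9.19 and 9.69 of the BCR culture, and 9.25, 9.10 and 9.35 of the LPS culture. The groups did not overlap, and the differences from day 0 were −3.41 ± 0.27 (adjusted p = 8.05e-09), −3.16 ± 0.27 (2.01e-08) and −3.38 ± 0.26 (1.77e-12). It rose from day 4 to day 7 by 1.13 ± 0.27 in the TLR (adjusted p = 0.00276) and by 0.81 ± 0.27 in the BCR culture (0.0271), and stayed below every day 0 library. The BCR rise lost its call when all libraries were centred on their median (0.66, adjusted p = 0.114) and without replicate 1 or 2 of either day (0.60 to 0.83).

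Tlr6 (chr5:64952031-64960097, minus strand), the other partner of Tlr2 and the neighbour of Tlr1, had smaller differences. It stood at 8.0, 7.87 and 7.81 at day 0, and at day 4 at 7.55, 7.26 and 7.68 in the TLR culture, 7.08, 6.38 and 7.00 in the BCR culture and 6.19, 6.22 and 6.54 in the LPS culture. The fall passed in the BCR (−1.07 ± 0.31, adjusted p = 0.00787) and LPS cultures (−1.58 ± 0.24, 1.32e-06). In the TLR culture the difference was −0.40 ± 0.31 with a 95% interval from −1.05 to 0.26. Tlr2 (chr3:83836272-83841767, minus strand) stood at 8.16, 7.89 and 7.89 at day 0 and at 6.26, 6.55 and 6.66 at day 4 of the BCR culture, a fall of 1.49 ± 0.23 (adjusted p = 2.73e-05). In the TLR culture it fell by 0.60 ± 0.23 (0.0383), a call lost without any 1 of 5 of the 6 libraries. In the LPS culture it was higher than at day 0, at 8.24, 8.55 and 8.37 (0.41 ± 0.13, adjusted p = 0.00734), which became 0.32 (0.0731) after median centring and 0.32 (0.0544) without the second LPS library.

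**Figure D2:**
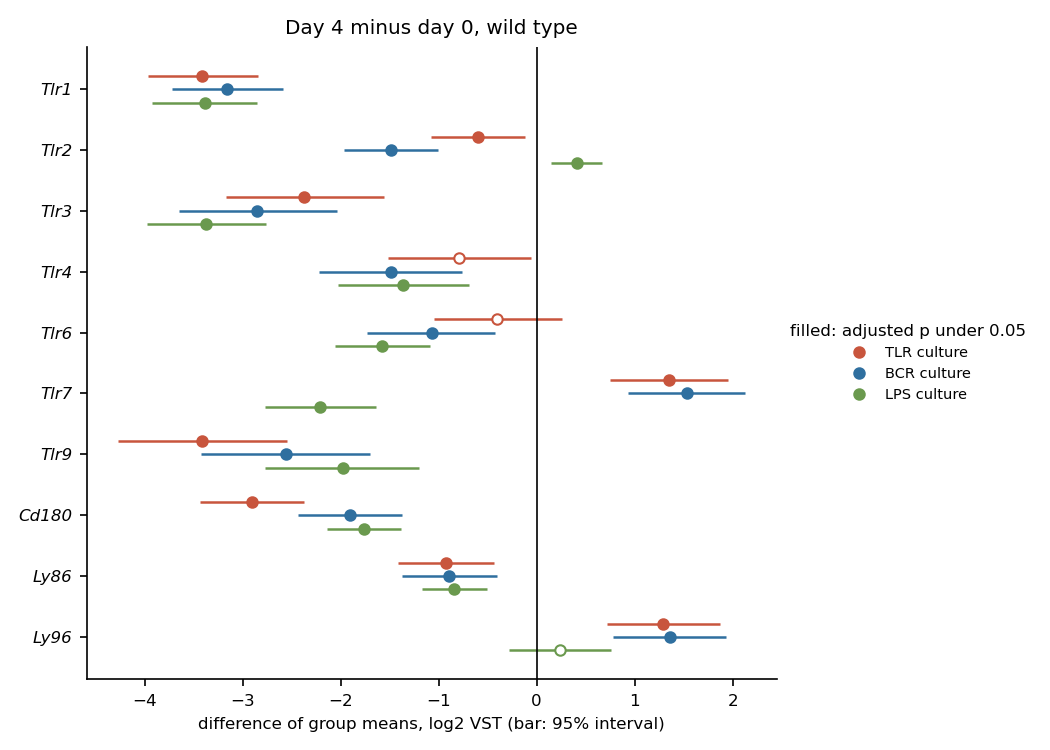
The difference in log2 VST value between day 4 and day 0 (horizontal axis) is given for each gene and wild type culture; points are differences of means of 3 libraries, bars are 95% intervals and filled points passed an adjusted p of 0.05. Tlr7 lies at 1.35 and 1.53 in the TLR and BCR cultures and at −2.21 in the LPS culture.

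The nucleic acid receptors moved in opposite directions in the cultures with L cells. Tlr9 (chr9:106222598-106226883, plus strand), which binds CpG DNA, stood at 10.73, 10.37 and 10.72 at day 0. It stood at 7.38, 7.75 and 6.45 at day 4 of the TLR culture and at 8.06, 8.68 and 7.41 of the BCR culture. The groups did not overlap, with differences of −3.41 ± 0.41 (adjusted p = 1.81e-06) and −2.56 ± 0.41 (4.39e-05). In the LPS culture Tlr9 stood at 8.92, 8.38 and 8.57 (−1.98 ± 0.38, 5.43e-05). From day 4 to day 7 it rose by 1.59 ± 0.41 (adjusted p = 0.00517) in the TLR and by 1.77 ± 0.41 (0.00273) in the BCR culture, to 8.78 ± 0.56 and 9.82 ± 0.47 (SD, n = 3). Tlr9 has the highest GC content of the 10 genes (56.2%), and at day 4 of both cultures with L cells its libraries stood in the order of their GC offsets. At day 4 of the TLR culture its lowest library, replicate 3, had an offset of −1.14, against −0.16 and 0.05 in the other libraries. Corrected for transcript GC content and length, the differences from day 0 were −3.39 in the TLR, −2.47 in the BCR and −2.34 in the LPS culture.

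Tlr7 (chrX:167304929-167330558, minus strand), which binds single-stranded RNA, stood at 10.92, 10.86 and 10.85 at day 0. It stood at 12.09, 11.89 and 12.69 at day 4 of the TLR culture and at 12.50, 11.94 and 12.79 of the BCR culture. Every library of both cultures lay above day 0, by 1.35 ± 0.28 (adjusted p = 0.000735) and 1.53 ± 0.28 (0.0002). In the LPS culture it stood at 8.87, 8.57 and 8.57, below every day 0 library (−2.21 ± 0.28, 4.85e-08). From day 4 to day 7 Tlr7 fell in the BCR culture by 1.36 ± 0.28 (adjusted p = 0.0012), while in the TLR culture the difference was −0.44 ± 0.28 (0.252). The difference between these changes did not pass its own test (0.93 ± 0.40, adjusted p = 0.326).

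Feeder fibroblast markers stood high in the same wild type day 4 groups as Tlr7, but not in the same order within them. Their sum ran from 1740 to 5070 normalised reads at day 4 of the wild type TLR and BCR cultures, from 23.6 to 60.8 in the wild type LPS culture and from 88.8 to 164 at day 0. Of these 13 markers Dcn was at 0 in every library of both wild type cultures with L cells, and 9 were at 0 in every wild type LPS library of day 4. Within the TLR culture Tlr7 was 11.89 at the highest sum (3490) and 12.69 at the lowest (1740). Within the BCR culture it was 11.94 at the highest (5070) and 12.79 at the lowest (2850). In dEx1A the sums were 1760 to 2880 at day 4 of the TLR culture, with Tlr7 at 12.34 to 13.19. At day 7 of the dEx1A BCR culture they were 5120 to 7260, with Tlr7 at 10.31 to 11.01. In the wild type day 4 cultures with L cells Tlr7, with a GC content of 41.0%, also stood in the reverse order of the GC offsets. The offsets were −0.16, 0.05 and −1.14 in replicates 1 to 3 of the TLR culture and −0.53, 0.1 and −1.18 of the BCR culture. After GC and length correction Tlr7 differed from day 0 by 1.21 (TLR), 1.35 (BCR) and −1.78 (LPS culture). The part of the feeder fibroblast markers in the day 4 rise was not tested.

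Tlr3 (chr8:45395665-45411080, minus strand), the receptor for double-stranded RNA, stood at 7.40, 7.08 and 7.47 at day 0, or 206, 147 and 216 reads. At day 4 it held 26, 26 and 40 reads in the TLR culture, 5, 14 and 25 in the BCR culture and 5, 3 and 2 in the LPS culture. The differences on the log2 scale were −2.37 ± 0.38, −2.85 ± 0.38 and −3.37 ± 0.30, with adjusted p of 5.37e-05, 6.13e-06 and 3.88e-11. At such counts later differences between cultures rest on few reads. The annotated gene Gm45542 overlaps Tlr3, with the same limit as for Cd180.

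Between day 0 and day 4 the parts of the LPS receptor did not move together. Tlr4 (chr4:66827584-66930284, plus strand) stood at 8.74, 8.86 and 8.69 at day 0 and at 7.16, 7.00 and 7.66 at day 4 of the BCR culture, a fall of 1.49 ± 0.35 (adjusted p = 0.00153). In the LPS culture it stood at 7.66, 7.37 and 7.19 (−1.36 ± 0.33, 0.000716), which became −0.78 (0.00438) after the GC and length correction. In the TLR culture it stood at 7.83, 7.79 and 8.31, and the difference of −0.79 ± 0.35 missed the threshold (adjusted p = 0.0698). It passed when only the compared groups were fitted (adjusted p = 0.0054) and after the GC and length correction (−0.86, 0.0093). Ly96 (chr1:16688051-16709611, plus strand), without which Tlr4 does not bind LPS, stood at 6.31, 6.45 and 6.53 at day 0. It rose in the TLR culture to 7.54, 7.38 and 8.25 (1.29 ± 0.27, adjusted p = 0.000763) and in the BCR culture to 7.87, 7.30 and 8.19 (1.36 ± 0.27, 0.000456). In the LPS culture it stood at 6.65, 6.38 and 6.99, with a difference of 0.24 ± 0.26 and a 95% interval from −0.28 to 0.76, and it passed after that correction (0.42, 0.0427). Ly96 rose again by 0.94 ± 0.27 between days 4 and 7 in the TLR culture (adjusted p = 0.0118), where its level of 8.66 ± 0.25 (SD, n = 3) was its highest group mean. That call was lost without the first or second day 4 library (0.85, adjusted p = 0.0505, and 0.77, 0.0664).

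From day 4 to day 7 several members came back in the wild type TLR and BCR cultures. In the TLR culture 6 of 10 were higher and 0 lower, against 17.7% and 18.6% of genes, with a median difference of 0.96. At an unadjusted p of 0.05 there were 0 lower as well. In the BCR culture 5 were higher and 1, Tlr7, lower, against 15.3% and 15.2%. Besides Cd180, Tlr1 and Tlr9, Tlr2 rose in the TLR and BCR cultures by 1.03 ± 0.23 (adjusted p = 0.00172) and 0.83 ± 0.23 (0.00979), and Tlr4 by 0.98 ± 0.35 (0.0337) and 1.35 ± 0.35 (0.0061). The Tlr4 call in the TLR culture was lost without any 1 of 4 libraries (0.88 to 0.94). The Tlr2 call in the BCR culture was lost without the first day 4 library (0.71, adjusted p = 0.0529). These comparisons share their day 4 libraries with those against day 0. In the wild type LPS culture 0 of 10 members changed from day 4 to day 7, against 4.75% higher and 3.65% lower among all genes. The widest difference was that of Tlr9, 0.62 ± 0.38 (adjusted p = 0.401). Of the members, 0 had an unadjusted p under 0.05 and voom called 0. Tlr7 passed in 2 settings, with the compared groups alone (0.48, adjusted p = 0.0179) and when corrected for GC content and length (0.52, 0.0485).

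The TLR and BCR cultures differed in few members. At day 4, Tlr2 was higher in the TLR culture by 0.89 ± 0.23 (adjusted p = 0.0196) and Cd180 lower by 1.00 ± 0.25 (0.0172), so that 1 member was higher and 1 lower, against 4.3% and 3.27% of genes. Neither call was left without the first or second TLR library or the first BCR library. The Tlr2 call was also lost without the third TLR library (0.82, adjusted p = 0.0755), and the Cd180 call without the third BCR library (−0.92, 0.0732). At day 7 Tlr2 alone passed, higher in the TLR culture by 1.09 ± 0.23 (adjusted p = 0.00816), with 8.50, 8.44 and 8.29 against 7.38, 7.50 and 7.07. The background there was 3.77% higher and 2.5% lower. For the other 9 members the difference at day 7 was between −1.04 (Tlr9) and 0.74 (Tlr7). No member passed the test of a different change between the cultures from day 4 to day 7 (1.69% of genes did) or from day 7 to day 10 (0.0667%). At an unadjusted p of 0.05 there were 2 and 4 such members, and voom called 0 in both. In the dEx1A set, Tlr2 was again higher at day 4 of the TLR culture (1.02 ± 0.13, adjusted p = 3.58e-07) and Cd180 lower (−1.12 ± 0.18, 3e-05). Tlr9 (−1.49 ± 0.38, 0.00591) and Ly86 (−0.53 ± 0.16, 0.0209) were lower too, though Tlr9 missed the threshold without the second BCR library (−1.25, 0.0579) and Ly86 after median centring (−0.40, 0.215) and without any 1 of 4 libraries (−0.55 to −0.47). That made 1 member higher and 3 lower, against 7.39% and 9.28%. At day 7 of dEx1A, Cd180 was higher in the TLR culture (1.22 ± 0.18, 4.81e-06) and Ly86 (−0.88 ± 0.16, 8.92e-05) and Tlr6 (−0.75 ± 0.24, 0.0159) lower, against 13.2% and 18.3%. The Tlr6 call was lost after median centring (−0.63, 0.0851), with the compared groups alone (0.114) and without replicate 3 of the TLR (−0.44, 0.182) or of the BCR culture (−0.65, 0.0668).

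At day 10 the members parted in the libraries that also held macrophage markers. In the BCR culture 3 of 10 were higher than at day 7 and 2 lower, against 10.8% and 5.91% of genes. Tlr4 went from 8.98, 8.60 and 8.28 to 10.62, 11.16 and 9.66 (1.86 ± 0.35, adjusted p = 0.00166). Tlr2 went from 7.38, 7.50 and 7.07 to 8.98, 9.29 and 8.18 (1.50 ± 0.23, 0.000406), and Tlr3 from 15, 13 and 10 reads to 96, 165 and 26 (2.16 ± 0.38, 0.00118). In each of these genes replicate 3 was the lowest of the 3 libraries. The same held for Tlr1 (9.23), Tlr6 (6.79), Tlr7 (10.58), Tlr9 (8.19) and Cd180 (12.04), but not for Ly86 or Ly96. Tlr9 fell by 1.38 ± 0.41 (adjusted p = 0.027), a call lost without any 1 of 4 libraries (−1.36 to −1.19), and Ly86 by 0.95 ± 0.23, lost without the first day 10 library (−0.75, 0.0583). When only the compared groups were fitted, 0 of the 5 called members passed (adjusted p from 0.0607 to 0.127).

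The 15 macrophage and monocyte markers, none of which was at 0 throughout either day 10 group, summed to 266000, 256000 and 34200 normalised reads in the day 10 BCR libraries, and to 7320, 10200 and 2970 at day 7. In the day 10 TLR culture they summed to 2760, 83300 and 12000, and Tlr4 there stood at 8.95, 10.32 and 9.86. Each day 10 group had its lowest Tlr4 in the library with the fewest marker reads. This order was not particular to Tlr4. It held in both groups for Tlr1, Tlr2, Tlr3, Tlr6, Tlr7 and Cd180 as well, and not in both for Tlr9, Ly86 or Ly96. Tlr13 and Tlr8, receptors for microbial RNA that are no members here, rose from day 7 to day 10 in the BCR culture by 4.55 ± 0.98 (adjusted p = 0.00421) and 4.46 ± 0.84 (0.00181). Replicate 3 of the day 10 BCR culture, taken alone, lay above the day 7 mean by 0.86 for Tlr2, 1.04 for Tlr4 and 1.12 for Tlr3. A single library has no spread of its own, so these are values with no test. The day 10 sums of 8 erythroid and platelet markers were 9240, 4900 and 185 (BCR) and 46, 2070 and 127 (TLR). Those of plasma cell markers were 493000, 321000 and 1100000 (BCR) and 1040000, 1220000 and 1660000 (TLR). GC offsets there were 0.1, −0.55 and −0.8 (BCR) and 0.44, −0.44 and −0.79 (TLR). At day 7 of the dEx1A BCR culture Tlr4 stood at 6.53, 6.96 and 8.68 at macrophage marker sums of 17500, 4190 and 46300. More cells of another type and more RNA per cell cannot be told apart in bulk RNA. The part of the macrophage markers and of these other values was not tested.

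**Figure D3:**
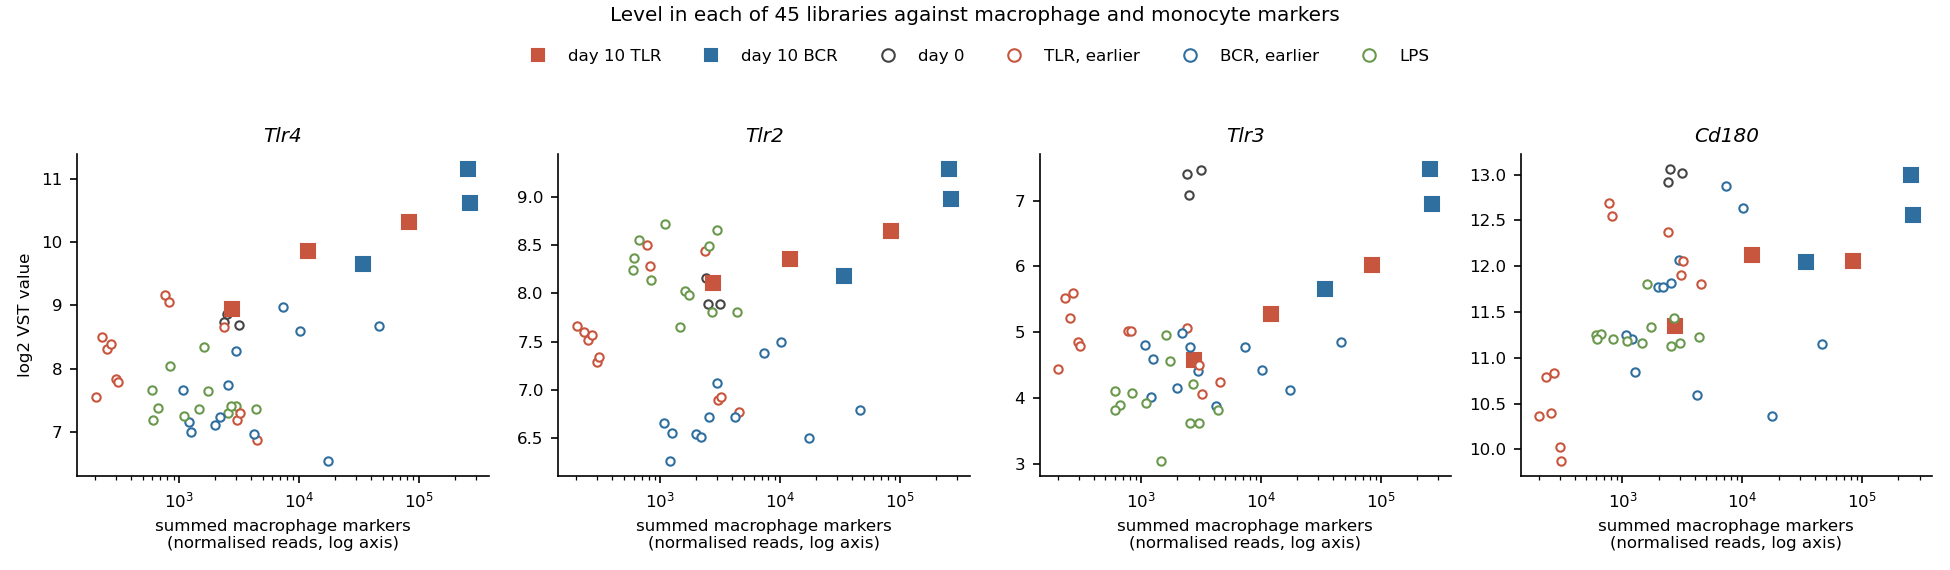
The log2 VST value of Tlr4, Tlr2, Tlr3 and Cd180 in each of 45 libraries is plotted against the summed macrophage and monocyte markers (normalised reads, log axis); squares are day 10. In the day 10 BCR libraries Tlr4 was 10.62 and 11.16 at sums of 266000 and 256000, and 9.66 at 34200.

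In the TLR culture 0 of 10 members were higher and 3 lower at day 10 than at day 7, against 3.51% and 4.69%. Tlr1 fell by 0.92 ± 0.27 (adjusted p = 0.0423), Tlr7 by 0.98 ± 0.28 (0.041) and Ly86 by 0.78 ± 0.23. Of the settings tried for these calls, several ended all of them, among them no filter, voom on recovered reads, the compared groups alone, and the loss of any 1 of 5 of the 6 libraries. Between the cultures at day 10, Tlr3 alone differed, lower in the TLR culture by 1.40 ± 0.38 (adjusted p = 0.0225) with overlapping groups. The background was 4.29% higher and 10.1% lower. That call was lost without any 1 of 4 libraries (−1.40 to −1.01, adjusted p from 0.0612 to 0.156), with voom (−1.87, 0.0509) and with the compared groups alone (0.358), and the difference was −0.37 without replicates 1 and 2 of the BCR culture. Without the third BCR library 5 members passed there.

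By the sample labels, dEx1A and wild type could be compared at one sex and age only in the LPS culture. At day 4, 4 of 10 members were higher in dEx1A and 0 lower, against 12.6% and 11.8% of genes, with a median difference of 0.77. Ly86 stood at 11.85, 11.52 and 11.82 in dEx1A and 10.71, 10.65 and 11.01 in wild type (0.94 ± 0.16, adjusted p = 6.99e-05). Tlr1 stood at 10.89, 10.39 and 10.52 against 9.25, 9.10 and 9.35 (1.37 ± 0.26, 0.000231). Tlr7 stood at 10.54, 9.44 and 10.16 against 8.87, 8.57 and 8.57 (1.38 ± 0.28, 0.000419). Tlr6 was higher by 1.09 ± 0.24 (0.00102), and in all 4 genes the groups did not overlap. The day 4 libraries also differed in depth (26.04 to 30.1 M reads in dEx1A, 15.5 to 19.42 in wild type) and GC offset (−0.45 to 0.38 against 0.74 to 0.77). After the GC and length correction the 4 differences were 0.86, 1.18, 1.07 and 0.92, and Tlr9 passed as well (1.30, adjusted p = 0.00156, against 0.97 and 0.0642). Plasma cell markers were lower in dEx1A, at 30100 to 52100 against 150000 to 158000 normalised reads, and mature B cell markers were 92800 to 102000 against 83100 to 89100. Macrophage and monocyte markers summed to 837 to 1730 against 598 to 662, with 3 and 2 of the 15 at 0 throughout. Feeder fibroblast markers overlapped, at 30.6 to 33.8 against 23.6 to 60.8. The part of these markers in the differences was not tested.

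At day 7 of the LPS culture 0 members were higher and 1 lower in dEx1A. This was Tlr2, which stood lower (7.81, 7.65 and 7.81 against 8.49, 8.66 and 8.72; −0.87 ± 0.13, adjusted p = 1.27e-05). The background was 3.3% higher and 3.78% lower. Tlr2 was lower at day 4 too, at 8.03, 8.14 and 7.98 against 8.24, 8.55 and 8.37, but missed the threshold (−0.34 ± 0.13, adjusted p = 0.0531). It passed with the stricter filter (0.0391), voom (−0.36, 0.0357), the GC and length correction (−0.35, 0.0293) and without the first wild type library (−0.41, 0.044). Tlr7 kept a difference of 0.84 ± 0.28 at day 7 that missed it (adjusted p = 0.0632), and passed after the GC and length correction (0.80, 0.0024), with the compared groups alone (0.0267) and without the second dEx1A library (1.03, 0.0378). The test of the change in the genotype difference from day 4 to day 7 called 1 of 10 members, Tlr1 (−1.28 ± 0.37, adjusted p = 0.0357), against 5.48% of genes. Without any 1 of 6 libraries that call was lost (−1.29 to −0.92, adjusted p from 0.0651 to 0.145). Of the groups in this test, dEx1A at day 4 alone lay outside the set of lower depth and higher GC offset. The change cannot be told apart from the library set. Within dEx1A, from day 4 to day 7, 0 members were higher and 4 lower, against 16.3% and 17.8%. They were Tlr6 (−1.20 ± 0.24, 0.000222), Tlr1 (−1.18 ± 0.26, 0.000709), Ly86 (−0.50 ± 0.16, 0.0167) and Tlr3 (−0.85 ± 0.30, 0.0273). The calls of Ly86 and Tlr3 were lost without replicate 1 or 3 of day 4 or replicate 2 of day 7, and that of Tlr3 after the GC and length correction (−0.52, 0.129). These day 4 and day 7 libraries lie in different library sets, as do those of the dEx1A TLR and BCR cultures.

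**Figure D4:**
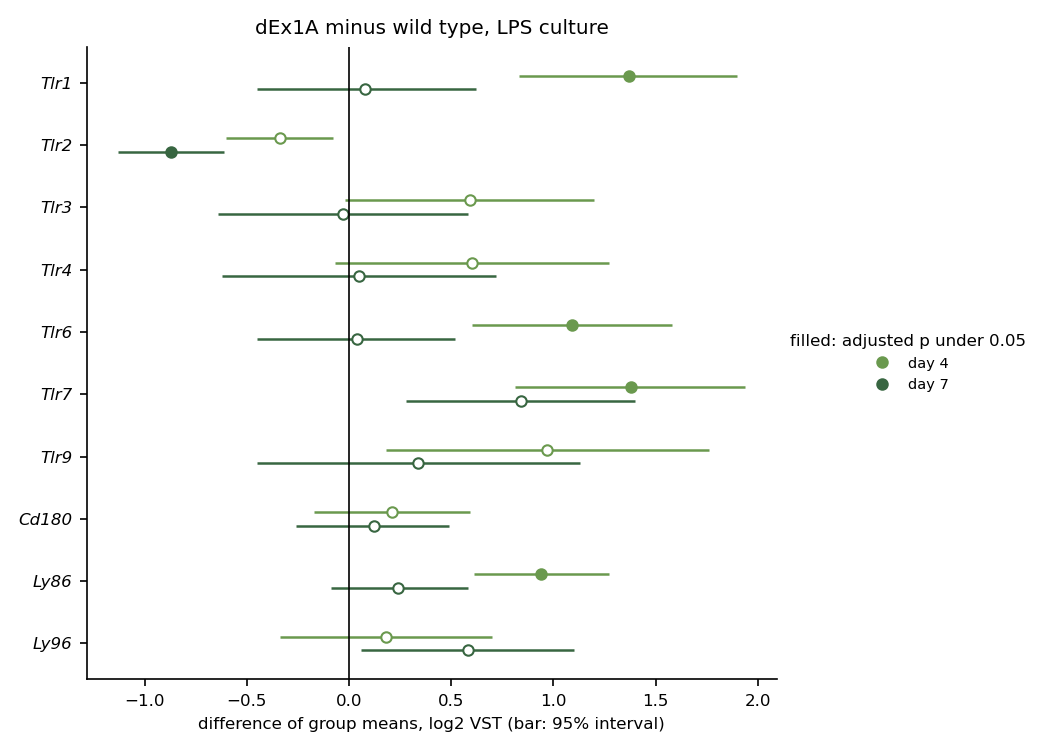
The difference in log2 VST value between dEx1A and wild type in the LPS culture (horizontal axis) is given for each gene at day 4 and day 7; points are differences of means of 3 libraries, bars are 95% intervals and filled points passed an adjusted p of 0.05. Tlr1 lies at 1.37 at day 4 and at 0.08 at day 7, and Tlr2 at −0.34 and −0.87.

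In the TLR and BCR cultures the sample labels tie genotype to sex and age, and at day 7 genotype also goes with the library set, so these cannot be told apart. The protocol text calls the mice matched for both, and which of the 2 descriptions holds is not known here. At day 4 of the TLR culture 0 of 10 members differed, against 4.08% higher and 3.14% lower among all genes. There were 3 at an unadjusted p of 0.05 (Tlr7, Cd180 and Ly96), and voom called 0. Cd180 (0.56, adjusted p = 0.0578) passed with the stricter filter (0.0452), median centring (0.76, 0.0274) and the GC and length correction (0.45, 0.0199). At day 4 of the BCR culture Cd180 alone passed (0.69 ± 0.18, adjusted p = 0.0453), with 11.77, 11.77 and 11.82 in dEx1A and 11.20, 10.85 and 11.25 in wild type. The background was 1.19% and 0.669%, and the call was lost without any 1 of the 6 libraries. At day 7, 26.2% were higher and 28.7% lower among all genes in the TLR culture, and 25.8% and 25% in the BCR culture. There 0 members were higher and 8 lower in the TLR culture, and 0 higher and 6 lower in the BCR culture. Tlr1 had the widest difference in the TLR culture, with 8.36, 8.25 and 7.89 in dEx1A against 10.37, 10.15 and 10.50 (−2.17 ± 0.26). Cd180 was lower by 1.82 ± 0.18 in the BCR culture, with 10.37, 10.59 and 11.15 against 12.87, 12.64 and 12.07. After the GC and length correction the TLR calls of Cd180 (−0.22), Ly86 (−0.33) and Tlr3 (−0.14) were lost, those of Tlr4 and Ly96 went from −1.85 to −1.18 and from −1.04 to −0.59, and Tlr9 went from −0.13 to −1.01 and passed (adjusted p = 0.00702). In the BCR culture Tlr9 (−0.99 ± 0.38) missed the threshold without any 1 of 3 libraries (−0.91 to −0.57), and was −1.69 (adjusted p = 2.91e-05) after that correction. There Ly96 (−0.63 ± 0.26) missed it without any 1 of the 6 libraries and after the correction (−0.31, 0.154), and Tlr4 went from −1.23 to −0.71 (0.0115). With the compared groups alone Tlr2, Tlr4 and Tlr9 missed it in the BCR culture (adjusted p from 0.0557 to 0.0906).

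Marker sums of other cell types and stages also differed between the genotypes at day 7. Plasma cell markers summed to 413000 to 511000 normalised reads in dEx1A against 1190000 to 1680000 in wild type in the TLR culture, and to 66100 to 114000 against 465000 to 630000 in the BCR culture. Mature B cell markers summed to 41700 to 44200 against 67000 to 75300 and to 40400 to 62600 against 88000 to 92600. Feeder fibroblast markers stood at 675 to 730 against 138 to 260 in the TLR and at 5120 to 7260 against 562 to 738 in the BCR culture, with 2 to 4 of the 13 at 0 throughout each group. Macrophage and monocyte markers stood at 3050 to 4500 against 771 to 2380 and at 4190 to 46300 against 2970 to 10200, and 0 of the 15 were at 0 throughout a group. Their part in the day 7 differences was not tested.

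Within dEx1A, between days 4 and 7 in the TLR culture, 2 members (Cd180, 1.26 ± 0.18, and Tlr9, 1.93 ± 0.38) were higher and 8 lower, against 29.3% and 32.8% of genes. After the GC and length correction 5 of the 10 passed, and Tlr9 was 0.99 (adjusted p = 0.00656). Tlr7 went from −1.45 to −0.63 and Tlr6 from −1.21 to −0.70, while Tlr1 (−0.47), Tlr3 (−0.04), Tlr4 (−0.13), Ly86 (−0.27) and Ly96 (−0.19) lost their calls. Of the 10, 0 were higher and 3 lower in the BCR culture, against 26.2% and 27.7%. They were Cd180 (−1.08 ± 0.18), Tlr1 (−1.11 ± 0.26) and Tlr7 (−1.72 ± 0.28).

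The dEx1A set allowed the LPS culture to be set against the TLR culture in one genotype, sex and age, and Tlr7 and Tlr9 stood in opposite order in them. At day 4 Tlr7 was lower in the LPS culture by 2.81 ± 0.28 (adjusted p = 1.11e-09), with 10.54, 9.44 and 10.16 against 13.04, 12.34 and 13.19. Tlr9 was higher by 2.87 ± 0.38 (4.14e-07), with 9.53, 9.46 and 9.79 against 6.54, 7.27 and 6.35. In neither gene did the groups overlap. In all, 5 members (Tlr9, Tlr1, Ly86, Cd180 and Tlr2) were higher and 2 (Tlr7 and Ly96) lower, against 21.1% and 24.2% of genes. GC offsets were −0.45 to 0.38 in the LPS and −1.51 to −0.28 in the TLR libraries, and over the settings tried the differences ran from 2.50 to 3.15 for Tlr9 and from −3.07 to −2.33 for Tlr7, with every adjusted p under 0.001. Feeder fibroblast markers summed to 30.6 to 33.8 normalised reads in the LPS and 1760 to 2880 in the TLR libraries, with 5 and 0 of the 13 at 0 throughout. Mature B cell markers summed to 92800 to 102000 against 34600 to 51200, plasma cell markers to 30100 to 52100 against 47000 to 57500, and macrophage and monocyte markers to 837 to 1730 against 203 to 271. Their part in these differences was not tested. At day 7 Tlr7 was again lower in the LPS culture (−1.41 ± 0.28, adjusted p = 0.000349), while Tlr9 missed the threshold (0.93 ± 0.38, 0.0975). There 3 members were higher and 2 lower, against 7.79% and 9.57%. Feeder fibroblast markers then stood at 39.7 to 55.8 against 675 to 730 and mature B cell markers at 59100 to 74700 against 41700 to 44200. The Cd180 call (−0.65 ± 0.18, 0.012) was lost after median centring (−0.56, 0.0831) and without the second LPS (−0.59, 0.053) or second TLR library (−0.58, 0.0538). Tlr9 passed after median centring (1.02, 0.0384), after the GC and length correction (1.09, 0.00832) and without the second LPS library (1.28, 0.0321).

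The other genes of the pathway were counted from lists of its parts. Among all genes 24.9% were higher and 23.5% lower at day 4 of the TLR culture than at day 0, and 26.1% and 24.5% in the BCR culture. Among 9 transcription factors, 1 was higher and 7 lower at day 4 of the TLR culture than at day 0, and the same counts held in the BCR culture. Jun fell by 3.30 ± 0.29 and 3.54 ± 0.29, and Nfkbiz, an inducible NF-kappa-B cofactor, by 1.91 ± 0.16 and 1.44 ± 0.16. Of 16 kinases and ubiquitin ligases, 1 was higher and 7 lower in the TLR culture and 1 and 8 in the BCR culture, led by Irak2 (−2.56 ± 0.17 and −2.75 ± 0.17). Among 7 adaptors, 1 was higher and 1 lower in the TLR culture and 1 and 2 in the BCR culture. Scimp, which tethers kinases to Toll-like receptors in macrophages, fell by 3.51 ± 0.27 and 3.19 ± 0.27, and Ticam2, which links Tlr4 to Ticam1, rose by 2.70 ± 0.22 and 3.30 ± 0.22. Among 12 chaperones and trafficking factors, 3 were higher and 4 lower in both cultures. Hsp90b1, which folds most Toll-like receptors, rose by 2.35 ± 0.33 and 2.04 ± 0.33. Unc93b1, which carries Tlr3, Tlr7 and Tlr9 to endosomes, fell by 1.82 ± 0.41 and 2.13 ± 0.41. Slc15a4, an endosomal transporter needed for Tlr7 and Tlr9 signals, fell by 2.15 ± 0.17 and 2.27 ± 0.17. Among 13 brakes on the pathway, 2 were higher and 5 lower in the TLR culture and 1 and 6 in the BCR culture, and Socs1 rose by 2.71 ± 0.30 and 3.03 ± 0.30. Of 7 other Toll-like receptors and LPS-handling proteins 6 were tested, and 0 were higher and 2 lower in the TLR culture and 1 and 1 in the BCR culture.

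Between genotypes in the LPS culture, Irf7, which drives type I interferon genes downstream of Tlr7 and Tlr9, was lower in dEx1A by 3.63 ± 0.28 (adjusted p = 2.33e-11) at day 4 and by 2.36 ± 0.28 (2.5e-07) at day 7. At day 4, when 12.6% of all genes were higher and 11.8% lower, 0 of 9 transcription factors were higher and 1 lower, which is near that background. Among the 13 brakes 2 were higher and 3 lower, with Dok3 at −2.27 ± 0.36. The 12 chaperones and trafficking factors had 1 higher and 2 lower, the 16 kinases and ubiquitin ligases 1 and 1, and the 7 adaptors 1 and 0. Lgmn, a lysosomal protease that cleaves Tlr9, was lower by 1.39 ± 0.24 at day 4 and by 0.98 ± 0.24 at day 7.

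Over the 15 group means, Pearson r between members ran from −0.69 (Ly86 and Ly96) to 0.80 (Tlr3 and Tlr6). Tlr3 and Tlr4 had an r of 0.75, Tlr4 and Tlr6 of 0.69, Tlr1 and Tlr6 of 0.67, Tlr1 and Tlr3 of 0.65 and Tlr1 and Cd180 of 0.63. Of the partners and the nucleic acid receptors, Tlr4 and Ly96 had an r of 0.55, Cd180 and Ly86 of −0.04 and Tlr7 and Tlr9 of −0.58. These describe 15 means that share mice, library sets and GC offsets. Among the 19124 genes compared, the pattern most like that of Tlr7 was Tet2 (r = 0.96), that of Tlr9 Siglecg (0.95), that of Cd180 Nxpe1-ps (0.92), that of Tlr1 Slc28a2 (0.97) and that of Tlr4 Gm26716 (0.97). In the order of the 15 group means, neighbours were apart by more than the sum of their SDs in 3 of 14 places for Cd180 and Tlr2, in 2 for Tlr1, Tlr7 and Ly86, in 1 for Tlr4, Tlr6 and Tlr9 and in 0 for Tlr3 and Ly96. Day 0 stood apart at the top for Cd180, Tlr1 and Tlr9.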

How the data were processed

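The authors deposited 2 tables of log2 values, 1 with 21 and 1 with 39 columns, of which 15 are in both with identical values. The submitters' processing notes name STAR 2.6.0c and RSEM 1.3.0, Trim Galore 0.6.0 and FastQC 0.11.8, and DESeq2 1.22.2 under R 3.5.1, and list mm10, GRCm38.p6 and GRCh38.p12 as builds. Per the labels' protocols, libraries were stranded total RNA read as single reads. Per the file headers and values, these are gene-level estimates after a variance-stabilising transformation. It was inverted to recover reads, and 94.1% to 100.0% of values under 20 reads came out whole within 0.1 reads, where chance gives 20%. The recovered reads served for levels and for voom only. 1 gene below the floor was left out. Replicates differed by more than sampling noise in all 45 pairs (chi-square per gene 11.27 to 475.66).

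Genes above the floor by 1 in at least 3 libraries (19497 and 20331) entered a limma 3.58.1 fit (R 4.3.3) on group means with a trended prior, 14 and 26 residual degrees of freedom, and Benjamini-Hochberg adjustment within each of 27 comparisons at 0.05. The method was tested on simulated counts with the same spread setting for all genes and groups. Uneven spread between groups was not tried. Positions, exon length and GC content came from GENCODE M21 (GRCm38). The GC offset of a library compares how far the GC-richest and GC-poorest 25% of 4856 well expressed protein-coding genes lie, by their medians, from their means over libraries. Same-numbered replicates correlated above 0.1 in every pair for wild type TLR against BCR at days 4 and 10, dEx1A TLR against BCR at day 4, dEx1A LPS day 7 against day 4, and genotype in BCR at day 4. Named genes outside the family were up to 3 in each list, those past the threshold with the widest differences, and genes most like a member were chosen by Pearson r over group means. Alternatives were other filters, median centring, GC and length correction, voom, other sets of libraries, a replicate block, and leaving out each library. Members, lists and comparisons were chosen with earlier results of these data known.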

Additional observations from a re-analysis of the deposited data

Results flagged for a closer look

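The difference between dEx1A and wild type in Tlr1 in the LPS culture changed between day 4 and day 7 by −1.28 ± 0.37 (limma, adjusted p = 0.0357), from 1.37 to 0.08. It was singled out because the same contrast differed between 2 time points by a test of the difference itself. Of the groups in that test, dEx1A at day 4 alone lay outside the set of lower depth and higher GC offset. Its libraries held 26.04 to 30.1 M reads at GC offsets of −0.45 to 0.38, so the change cannot be told apart from the library set. Over the settings tried the change ran from −1.59 to −0.92 and its adjusted p from 0.0072 to 0.145.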

How the results depend on the processing

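Of 270 differences of the 10 genes (10 genes in 27 comparisons), 108 were called, and 3988 values under other settings left 3754 on the same side of the threshold with the same direction. 155 lost a call, 78 gained one and 1 reversed: Tlr4 from day 4 to day 7 of the dEx1A BCR culture was 0.03 and ran from −0.62 (without the third day 7 library) to 0.46 with 1 library left out. Counts of called members changed as follows, and the cause was not tested. In the wild type TLR culture, day 10 against day 7, the count of 3 became 0 with no filter, with voom, with the compared groups alone and with the replicate block, 1 with median centring and 5 with the GC and length correction. In the BCR culture, day 10 against day 7, the count of 5 became 0 with the compared groups alone and 1 without replicates 1 and 2 of day 10 together, where the lone library is assumed to vary like the other groups. For TLR against BCR at day 10 the count of 1 became 0 with voom, with the compared groups alone and without those 2 libraries, and 2 with all 45 libraries in 1 fit. The GC and length correction moved the counts to 2 for TLR against BCR at day 7 (from 1), 1 for both interactions of these cultures (from 0), 1 for wild type LPS day 7 against day 4 (from 0), 5 for dEx1A TLR day 7 against day 4 (from 10), 3 for genotype in LPS at day 7 (from 1), 1 for genotype in TLR at day 4 (from 0) and 2 for the genotype interaction (from 1). All libraries in 1 fit gave 1 for the day 7 to day 10 interaction (from 0), 0 for genotype in BCR at day 4 (from 1) and 0 for the genotype interaction. The compared groups alone gave 1 for wild type LPS day 7 against day 4, 2 for genotype in LPS at day 7, 0 for genotype in BCR at day 4, 3 for genotype in BCR at day 7 (from 6) and 2 for the genotype interaction. The replicate block also gave 2 for genotype in LPS at day 7 (Tlr7, adjusted p = 0.0333) and 2 for the genotype interaction (Tlr6, −1.05, 0.0313), and 7 for genotype in BCR at day 7 (Tlr6, −0.55, 0.029). It left every other count as it was. In the group comparisons among these the same-numbered replicates did not all correlate above 0.1, so the samples share only a number. The block changed no count in the 5 comparisons whose same-numbered replicates all correlated above 0.1. Whether those numbers mark shared mice is not stated, and genotype in BCR at day 4 compares different sets of mice. Genotype in TLR at day 4 gained 1 with the stricter filter and with median centring, genotype in BCR at day 4 fell to 0 with no filter and with median centring, and the genotype interaction gave 2 with the stricter filter. With 1 library left out, counts ran from 0 to 3 (TLR day 10 against day 7, genotype interaction, genotype in TLR at day 4), 3 to 5 (BCR day 10 against day 7), 0 to 2 (TLR against BCR at day 4), 0 to 5 (the same at day 10), 0 to 4 (day 7 to day 10 interaction), 2 to 4 (dEx1A LPS day 7 against day 4), 2 to 6 (dEx1A TLR against BCR at day 4), 1 to 2 (genotype in LPS at day 7) and 0 to 0 (genotype in BCR at day 4). Tlr3 is limited by low counts, with 0 to 42 reads in every culture library of days 4 and 7.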
